A study of Mus musculus with 23 samples.

Results

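Methylation of cytosine at CG dinucleotides is written by DNA methyltransferases, removed stepwise by enzymes of the TET family, and read by proteins with a methyl-CpG binding domain. Dnmt1 copies methylation onto the new strand after DNA replication and Dnmt3a and Dnmt3b methylate unmethylated DNA. In the adult brain, postmitotic neurons express Dnmt3a and TET enzymes, and their DNA carries 5-hydroxymethylcytosine, the product of TET oxidation. Expression levels of these genes were examined in the brains of mice that had developed in mothers on different diets. The members were chosen by gene name as Dnmt1, Dnmt3a, Dnmt3b, Dnmt3l, Tet1, Tet2, Tet3, Mbd1, and Mbd2, which makes 9 of the 31829 gene names on the array. They were measured by 18 of its 39429 probes, and every probe of a gene was compared.

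Embryos from in vitro fertilization of C57BL/6J eggs and sperm were transferred to ICR recipient mothers, which had consumed the control diet (CD), a protein-restricted diet (PR), or the PR diet with supplemental folic acid (FA) since 1 month before the transfer. Casein made up 20% of the CD and 5% of the PR and FA diets. Folic acid made up 0.02% of the CD and PR diets and 0.1% of the FA diet. After delivery by cesarean section, the pups were raised by ICR foster mothers and consumed the CD from weaning on. The study's methods give these foster mothers the CD alone, while a figure legend names the CD, PR, or FA diet. Whole brains of 12 male progenies, 4 in each group and 19 weeks old, were each measured on 1 one-colour Agilent array.

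All values are log2 of the normalized intensity, and the number of arrays limits their precision. The 4 arrays of each group lay on 1 slide and were scanned together, so that diet and slide cannot be told apart in any comparison. On the CD slide, 27068 to 28458 spots were well above background by the flag of the scanner software. The range was 31266 to 33478 for the PR mice and 30408 to 31672 for the FA mice. Negative control spots had a median net signal of 28.3 to 34.9 in the CD mice, 42.3 to 51.4 in the PR mice, and 38.9 to 47.9 in the FA mice. Of the 18 probes, 16 were well above background on all 12 arrays. The exceptions were 1 probe each of Dnmt3b and Tet3. On the array of PR replicate 1, the Y-linked gene Ddx3y was at 10.41, against 11.52 to 11.63 on the other arrays. Eif2s3y was also lowest there, at 9.08 against 9.64 to 11.06, as were both probes of Uty, which were not above background on all arrays. The 2 probes of Xist, an RNA of female cells, read 2.55 and 3.63 there. On the other arrays they read 2.42 to 3.09 and 2.90 to 4.78, and they were above background on 0 arrays and 1 array. The reason for the low Y-linked values was not tested.

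The PR group was compared with the CD group to ask whether protein restriction of the mother went with a different level of these genes in the adult brain. Dnmt1, Dnmt3a, and Tet2 had lower expression levels in the PR group, as did 1 of 3 probes of Tet3, and both probes of Mbd2 were higher. In whole brain, fewer cells of a type and less RNA per cell cannot be told apart. In all, 5 of the 18 probes (27.8%) were lower at an adjusted p under 0.05 in limma, against 16.6% of all probes on the array. The 2 higher probes (11.1%) stand against 13.4% of all probes. With scaling of the arrays to their 75th percentile, 4 probes (22.2%) were lower, near the 21% of all probes at that setting, and with normexp background correction 4 (22.2%) were, against 9.41%. Of the probes called over the whole array, 55.3% were lower with the deposited values, 44.2% with normexp, and 47.4% without dim probes. Over the 16 probes above background on every array, the fitted changes ran from −0.52 to 0.28. The median of all 18 was −0.16, beside −0.016 over all probes. The number of lower probes was 3 (16.7%) without CD replicate 2 or without PR replicate 3, near the 14.4% and 14% of all probes at those settings, 4 (22.2%) without PR replicate 1, against 14.2%, and 6 (33.3%) without FA replicate 3, against 16.4%.

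In the FA group, compared with the CD group to see the same diet with folic acid added, Dnmt1, Dnmt3a, and both Tet2 probes were again lower and both Mbd2 probes higher. Here too, 5 of the 18 probes (27.8%) were lower, against 18% of all probes, and 2 (11.1%) were higher, against 16.4%. With scaling to the 75th percentile, 4 (22.2%) were lower, against 23.3% of all probes, and with normexp 5 (27.8%) were, against 12.3%. Of the probes called over the whole array, 52.4% were lower with the deposited values, 43.2% with normexp, and 46.6% without dim probes. The fifth lower probe was another Tet3 probe than in the PR group, and no CD array had it flagged as above background. With dim probes left out, 5 of 16 probes (31.2%) were lower in PR, against 16.3% of all probes. In FA at that setting, 4 of 16 (25%) were lower, against 19.2%, which is nearer to the share of the whole array. Over the 16 probes above background on every array, the changes ran from −0.43 to 0.27. The median of all 18 was −0.12, beside −0.006 over all probes. Both comparisons use the same CD arrays. In each comparison, 2 of the 5 lower probes measure Tet2, and the 2 higher probes both measure Mbd2. The share of higher probes was near that of the whole array in PR and below it in FA. With normexp, 0 of the 18 probes were higher in FA, against 16.1% of all probes.

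**Figure D1:**
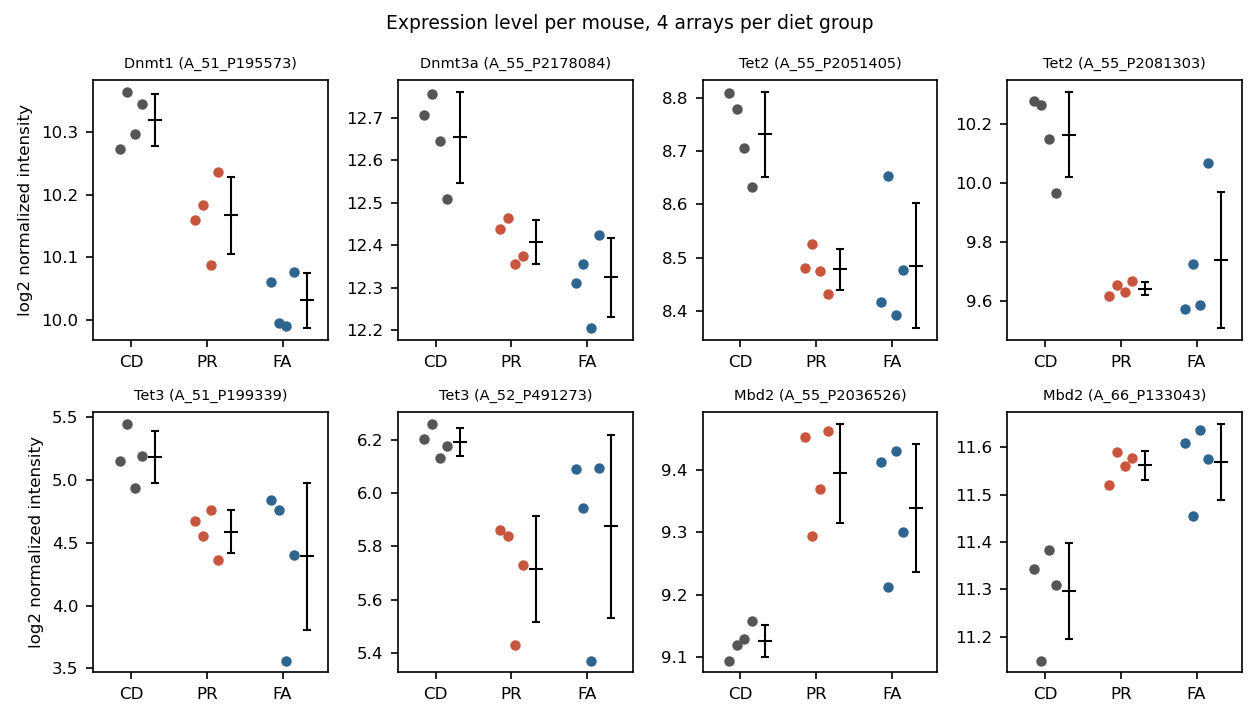
Expression level of each of the 8 probes that passed in at least 1 comparison, as log2 of the normalized intensity on the vertical axis of each panel, in the CD, PR, and FA groups. Each point is 1 mouse, and the bar beside the points is the mean with the SD of 4 mice. The axes differ between panels and do not start at 0. In the Dnmt1 panel the 3 groups do not overlap, and in both Mbd2 panels every PR and FA mouse lies above every CD mouse.

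Among the writers, Dnmt1 keeps existing methylation patterns through cell division and is also expressed in neurons. Its probe (NM_010066, chromosome 9 of mm9, 20712341 to 20711973 on the minus strand) read 10.27, 10.36, 10.30, and 10.34 in the CD mice of replicates 1 to 4. It read 10.16, 10.18, 10.09, and 10.24 in the PR mice and 10.06, 10.00, 9.99, and 10.08 in the FA mice. Every PR mouse was below every CD mouse, and every FA mouse was below every PR mouse. The mean level was 10.32 ± 0.042 (SD, n = 4) in CD, 10.17 ± 0.061 in PR, and 10.03 ± 0.045 in FA. The change was −0.15 in PR (SE 0.044, limma adjusted p = 0.0242) and −0.29 in FA (SE 0.044, limma adjusted p = 0.000732), or 1.11-fold and 1.22-fold lower. The difference between FA and PR was −0.14, with a 95% interval from −0.23 to −0.039, and did not pass (limma adjusted p = 0.195). In PR, the change of Dnmt1 no longer passed without CD replicate 2 (limma adjusted p = 0.0611), PR replicate 1 (0.0507), or PR replicate 3 (0.0671), or when only these groups were fitted (0.0517). Its adjusted p ran from 0.00905 to 0.0671 over 21 alternatives.

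Dnmt3a, the main de novo methyltransferase of the mature brain, was measured by 1 probe (NM_007872, chromosome 12 of mm9, 3914320 to 3914379). It was at 12.71, 12.76, 12.65, and 12.51 in the CD mice, 12.44, 12.46, 12.36, and 12.37 in the PR mice, and 12.31, 12.36, 12.20, and 12.43 in the FA mice. CD replicate 4 was the lowest of the CD mice and still above all 8 mice of the other groups. The change was −0.25 in PR (SE 0.064, limma adjusted p = 0.0153) and −0.33 in FA (SE 0.064, limma adjusted p = 0.00284), which leaves 84.3% and 79.5% of the CD level. FA and PR differed by −0.084 (95% interval −0.23 to 0.058, limma adjusted p = 0.619), and their mice overlapped. The call of Dnmt3a was kept in both comparisons with CD under each of the 21 alternatives.

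Dnmt3b, the other de novo enzyme, and Dnmt3l, a partner of the de novo enzymes without catalytic activity, passed in 0 of 3 comparisons by limma. The 3 probes of Dnmt3b disagreed in sign. Relative to the CD group, they differed by 0.28, −0.026, and −0.17 in PR and by 0.21, 0.23, and −0.004 in FA. With 1 array left out, the FA difference ran from 0.101 to 0.29 on the first probe and from 0.145 to 0.358 on the second. The second of these probes was well above background on just 2 of the 4 CD arrays, and its PR difference turned to 0.18 when arrays were scaled to their 75th percentile and to 0.043 with normexp. Those settings turned the FA difference of the third probe to 0.009 and 0.036. On the first probe, PR replicate 4 was the highest of the 12 mice at 7.54, and without it the PR difference of 0.28 was 0.10. Dnmt3l was at 6.47 ± 0.29 (SD, n = 4) in the CD group, 6.20 ± 0.16 in PR, and 6.47 ± 0.094 in FA. The PR difference of −0.27 (limma adjusted p = 0.160) passed only without CD replicate 1, at −0.39 (limma adjusted p = 0.0327, with 0.0327 to 0.444 over the alternatives), and was −0.15 without CD replicate 4, the highest CD mouse at 6.82. The FA mice were all above the PR mice in Dnmt3l, from 6.33 to 6.53 against 5.97 to 6.32, but the difference of 0.27 did not pass (95% interval −0.023 to 0.57, limma adjusted p = 0.397).

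Among the erasers, Tet2 had lower expression levels on both probes. TET2 oxidizes 5-methylcytosine, as its relatives do, but has no DNA-binding CXXC domain of its own. Both probes are assigned to NM_001040400 and lie close together on the minus strand of chromosome 3 of mm9, at 133126905 to 133126964 and at 133126751 to 133126810. The first read 8.81, 8.78, 8.71, and 8.63 in the CD mice and 8.48, 8.53, 8.48, and 8.43 in the PR mice. In the FA mice it read 8.42, 8.65, 8.39, and 8.48. The PR mice were all below the CD mice, while FA replicate 2 reached above CD replicate 4. The change was −0.25 in PR (SE 0.063, limma adjusted p = 0.0124) and −0.25 in FA (SE 0.063, limma adjusted p = 0.0121).

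On the second Tet2 probe, the CD mice were at 10.28, 10.27, 10.15, and 9.97, the PR mice at 9.62, 9.65, 9.63, and 9.67, and the FA mice at 9.57, 9.73, 9.59, and 10.07. The PR mice lay within 0.05 of each other, with an SD of 0.022. FA replicate 4 was above CD replicate 4, and the other FA mice were below every CD mouse. The level was 1.44-fold lower in PR, with a log2 change of −0.52 (SE 0.11, limma adjusted p = 0.00491), and 1.34-fold lower in FA, with a change of −0.43 (SE 0.11, limma adjusted p = 0.0114). Without FA replicate 4, the FA change was −0.54. FA and PR differed by 0.007 on the first probe and 0.096 on the second, with 95% intervals from −0.13 to 0.15 and from −0.14 to 0.33. Both probes kept their calls against CD under all 21 alternatives.

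Tet3, the TET enzyme that is abundant in adult brain and in the zygote, was measured by 3 probes of NM_183138 on chromosome 6. All 3 were fitted lower than in CD in both groups, but their calls differed. The probe at 83352743 to 83352802 read 6.20, 6.26, 6.14, and 6.18 in the CD mice and 5.86, 5.84, 5.43, and 5.73 in the PR mice. It read 6.09, 5.95, 5.37, and 6.10 in the FA mice. Both groups lay below the CD mice, and FA replicate 3 was the lowest of the FA mice. The change was −0.48 in PR (SE 0.16, limma adjusted p = 0.0403) and −0.32 in FA (SE 0.16, limma adjusted p = 0.141). With 1 array left out, the FA change ran from −0.39 to −0.15. The PR call was lost in 11 of 21 alternatives, among them normexp with quantile normalization, with a change of −0.19 (limma adjusted p = 0.0532), scaling to the 75th percentile, with −0.32 (limma adjusted p = 0.139), and the Tukey test (0.133). It was also lost without any 1 of the 4 CD arrays (limma adjusted p = 0.0773, 0.0863, 0.0651, and 0.0639 for replicates 1 to 4), without PR replicates 2, 3, or 4 (0.05, 0.103, and 0.0766), and without FA replicate 2 (0.0521). Its adjusted p ran from 0.00472 to 0.139.

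The second Tet3 probe (83318731 to 83318790) had a signal well above background on 0 of 4 CD arrays, 4 PR arrays, and 3 FA arrays. Its values were nevertheless higher in CD, at 5.18 ± 0.21 (SD, n = 4), than in PR, at 4.59 ± 0.17, and in FA, at 4.39 ± 0.59. It passed in FA (limma adjusted p = 0.0303) and not in PR (limma adjusted p = 0.0949). Because the CD level was not well above background, no fold is given, and the part of the background in this call was not tested. The FA call was lost in 7 of 20 alternatives. These were scaling to the 75th percentile (limma adjusted p = 0.0615), the Tukey test (0.109), fitting only these groups (0.07), and leaving out CD replicates 1, 2, or 4 (0.0571, 0.0781, and 0.0541) or FA replicate 4 (0.0589). The adjusted p in FA ran from 0.0197 to 0.109. In PR, the probe passed without FA replicate 3 (limma adjusted p = 0.0103) and with only these groups fitted (0.0135), against 0.0949 otherwise and up to 0.393. The third probe (83319720 to 83319779) was at 7.19 ± 0.27 (SD, n = 4) in CD, 6.97 ± 0.10 in PR, and 7.01 ± 0.068 in FA. Its differences of −0.22 and −0.18 did not pass (limma adjusted p = 0.184 and 0.267), and were −0.096 and −0.056 without CD replicate 4, which was at 7.56 against 6.91 to 7.18 in the other CD mice.

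Tet1, which carries a CXXC domain, passed in 0 comparisons by limma, and its 3 probes disagreed in sign in PR, at 0.13, 0.17, and −0.28. In FA they were fitted at −0.024, −0.15, and −0.34. With 1 array left out, the PR differences ran from 0.077 to 0.21, from 0.12 to 0.23, and from −0.40 to −0.18. The second of these probes (NM_027384, chromosome 10 of mm9, 62274448 to 62274507) had the smallest p of all 18 probes between FA and PR. It was at 8.27, 8.57, 8.44, and 8.45 in the PR mice and 8.21, 8.11, 7.95, and 8.15 in the FA mice, which did not overlap. The difference of −0.33 (95% interval −0.52 to −0.13) did not pass (limma adjusted p = 0.124). The CD mean of 8.26 ± 0.14 (SD, n = 4) lay between those of both other groups.

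Of the readers, Mbd2 had higher expression levels in both groups on both of its probes. MBD2 binds methylated CG sites and brings the NuRD corepressor complex to them. The first probe (NM_010773, chromosome 18 of mm9, 70740406 to 70740465) read 9.10, 9.12, 9.13, and 9.16 in the CD mice, 9.45, 9.29, 9.37, and 9.46 in the PR mice, and 9.41, 9.21, 9.43, and 9.30 in the FA mice. The CD mice were all below the other 8 mice. The change was 0.27 in PR (SE 0.058, limma adjusted p = 0.00613) and 0.21 in FA (SE 0.058, limma adjusted p = 0.0161). The second probe, 70785350 to 70785409, was at 11.34, 11.15, 11.38, and 11.31 in CD, 11.52, 11.59, 11.56, and 11.58 in PR, and 11.61, 11.46, 11.64, and 11.58 in FA. Again the CD mice did not overlap with the others, and CD replicate 2 was the lowest of them. The change was 0.27 in PR (SE 0.058, limma adjusted p = 0.00689) and 0.27 in FA (SE 0.058, limma adjusted p = 0.00496), or 1.2-fold and 1.21-fold higher. Both FA calls were lost with normexp background correction and quantile normalization, with changes of 0.12 and 0.12 (limma adjusted p = 0.0946 and 0.0648). Over all alternatives, the adjusted p of Mbd2 in FA ran from 0.00673 to 0.0946 on the first probe and from 0.00272 to 0.0648 on the second. In PR, both Mbd2 probes kept their calls under all 21 alternatives.

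Mbd1, a reader that also has CXXC domains, passed in 0 comparisons by limma on either of its 2 probes. Its first probe (NM_013594, chromosome 18 of mm9, 74442279 to 74442338) was at 10.74 ± 0.086 (SD, n = 4) in CD, 10.65 ± 0.059 in PR, and 10.65 ± 0.043 in FA. Its differences from CD were −0.085 and −0.091, with 95% intervals from −0.20 to 0.030 and from −0.21 to 0.024. On the other probe (74437020 to 74437079), the differences were −0.006 in PR and −0.004 in FA, with 95% intervals from −0.21 to 0.20 in both. They turned to 0.096 and 0.021 with scaling to the 75th percentile and to 0.031 and 0.067 with normexp.

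**Figure D2:**
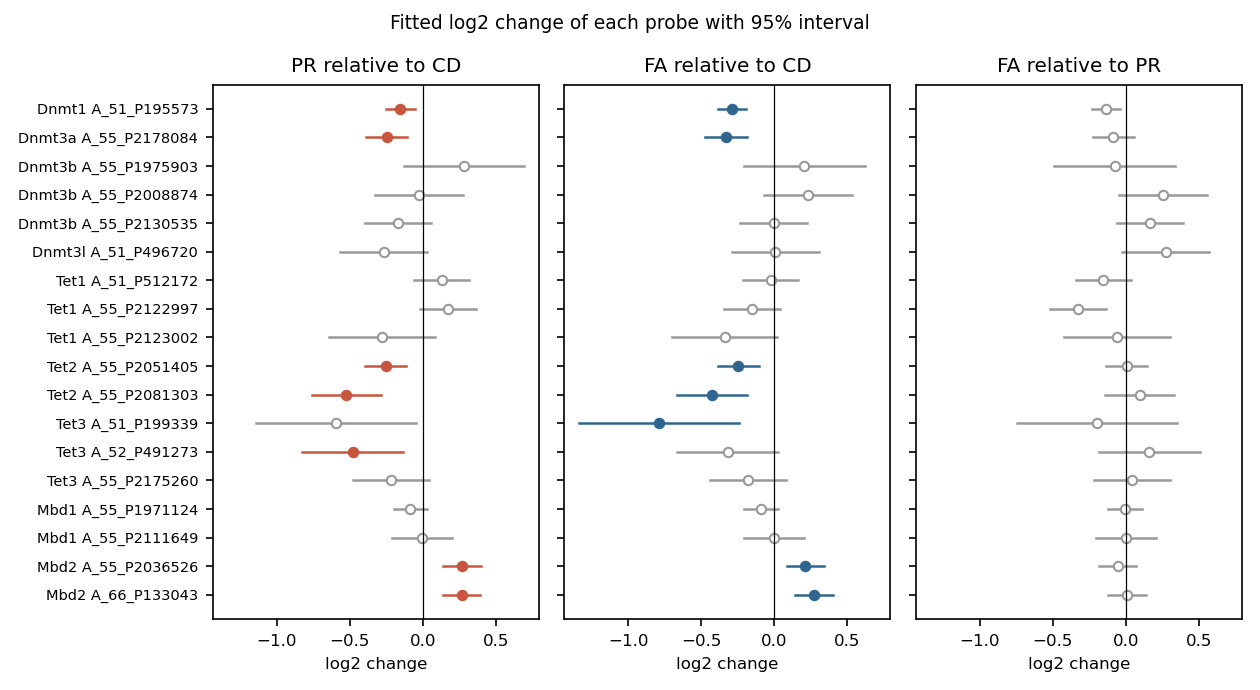
Fitted log2 change of each of the 18 probes (points) with its 95% interval (lines), for PR relative to CD, FA relative to CD, and FA relative to PR. Filled coloured points passed at an adjusted p under 0.05 in limma and open grey points did not. The labels A_55_P2008874 (Dnmt3b) and A_51_P199339 (Tet3) mark the second probe of each of these genes in the text. These probes were not above background on all arrays, and their points are fitted values only. In the first 2 panels, Dnmt1, Dnmt3a, and Tet2 lie below 0 and Mbd2 above it, and in the third panel no point is filled.

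The FA group was compared with the PR group to see what folic acid added to the low protein diet. In limma, 0 of the 18 probes were lower and 0 were higher, against 0.386% and 0.228% of all probes. These 2 shares depended on single arrays, and with 1 array left out they ran from 0.0482% (without FA replicate 3) to 0.413% for lower and from 0.038% to 0.243% for higher probes. At an unadjusted p under 0.05 there were 2 probes, those of Dnmt1 and of Tet1 given above, and a Tukey test passed 0 probes after adjustment and 2 before it. That test was also used at a threshold of 0.05, which is looser than that of the methods, and without their limit on the fold. Over the whole array, 62.8% of the called probes were lower in FA, and 83.2% with scaling to the 75th percentile. In the Tukey test the balance turned, with 25% lower (2 lower and 6 higher probes). Over the 16 probes above background on every array, the fitted differences ran from −0.33 to 0.27, and their 95% intervals lay between −0.52 and 0.57.

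The other genes of the methylation machinery were described by 4 lists with 97 probes of 68 genes. In PR, 14 probes (14.4%) were lower and 14 (14.4%) higher, against 16.6% and 13.4% of all probes. In FA, 14 (14.4%) were lower and 13 (13.4%) higher, against 18% and 16.4%. These shares were near or below those of the whole array, and the counts of each list below are given as a description. Their median change was −0.002 in PR and −0.021 in FA, and 0 of 97 probes passed between FA and PR by limma, with 12 at an unadjusted p under 0.05, and 0 and 8 by the Tukey test.

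The partners of the writers guide or stabilize the methyltransferases. Of 20 probes for 14 genes, 2 were lower and 2 higher in PR, and 0 were lower and 2 higher in FA, with medians of −0.025 and −0.026. The higher ones in both groups were Ehmt2 and a probe of Zfp57 with no CD array well above background. Uhrf1, which recruits DNMT1 to hemimethylated DNA, was at 5.88, 6.12, 5.76, and 5.97 in the CD mice and 5.53, 5.52, 5.17, and 5.61 in the PR mice. This made a change of −0.48 (SE 0.11, limma adjusted p = 0.00907). In the FA mice Uhrf1 was at 5.84 ± 0.13 (SD, n = 4), and its difference from CD of −0.095 did not pass (limma adjusted p = 0.541). The difference of 0.38 between FA and PR did not pass either (limma adjusted p = 0.151). With scaling to the 75th percentile, the PR change of Uhrf1 was −0.28 and did not pass (limma adjusted p = 0.114, the highest of 0.00569 to 0.114 over the alternatives). With normexp, it was −0.16 and passed. Another Uhrf1 probe exceeded background on 0 CD, 1 PR, and 0 FA arrays and did not pass in PR or FA (limma adjusted p = 0.972 and 0.693). Ehmt2, a histone H3 lysine methyltransferase, was higher by 0.21 in PR (limma adjusted p = 0.0145) and by 0.16 in FA (limma adjusted p = 0.0420). With that scaling, the differences of Ehmt2 were 0.064 and 0.035, and passed in neither group (limma adjusted p = 0.392 and 0.648, with 0.00647 to 0.392 over the alternatives in PR). The FA call of Ehmt2 was lost in 15 of 21 alternatives, among them leaving out any 1 array but CD replicate 2 (limma adjusted p from 0.012 to 0.648 over all). Naa10, an acetyltransferase subunit, was lower by −0.14 in PR (limma adjusted p = 0.0446) on 1 of its 2 probes, a call that was lost in 12 of 21 alternatives (limma adjusted p = 0.0265 to 0.107). Of the 12 arrays, only CD replicate 3, PR replicate 3, and FA replicate 3 could be left out without losing it.

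Removal of oxidized methylcytosine ends in base excision repair. On the list of TET cofactors and base excision, 7 of 30 probes were lower and 3 higher in PR, and 6 were lower and 5 higher in FA, with medians of −0.027 and −0.037. Tdg, the glycosylase that excises the oxidized bases made by TET enzymes, read 8.46, 8.39, 8.44, and 8.39 in the CD mice, 7.62, 7.77, 7.56, and 7.56 in the PR mice, and 7.55, 7.80, 7.93, and 7.83 in the FA mice. The change of this Tdg probe was −0.79 in PR (SE 0.078, limma adjusted p = 9.11e-05) and −0.64 in FA (SE 0.078, limma adjusted p = 0.000209). The 2 other Tdg probes were also well above background and did not pass, with differences of −0.13 and 0.020 in PR and −0.057 and −0.081 in FA. Parp1, which binds DNA strand breaks during repair, rose from 10.74 ± 0.047 (SD, n = 4) in CD to 11.22 ± 0.11 in PR and 11.34 ± 0.038 in FA. These are changes of 0.47 (limma adjusted p = 0.000226) and 0.60 (limma adjusted p = 7.46e-05). Gadd45g, of a stress-induced family linked to active demethylation, fell by 0.27 in PR (limma adjusted p = 0.00262) and by 0.32 in FA (limma adjusted p = 0.000773). One probe of Vprbp, now named Dcaf1, a substrate receptor of an ubiquitin ligase that modifies TET proteins, was lower by −0.20 and −0.29 (limma adjusted p = 0.00981 and 0.00104), and its 2 other probes did not pass. The calls of Tdg, Parp1, Gadd45g, and Vprbp were kept under all 21 alternatives.

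On the list of other methyl-CpG readers and their relatives, 1 of 17 probes was lower and 3 were higher in PR. In FA, 1 was lower and 1 higher, and the medians were 0.092 in PR and 0.018 in FA. The higher ones in PR were both probes of Mbd3 and that of Mbd3l2, which was well above background on 0 arrays of each group. Mbd3 and Mbd3l2 are on the list as relatives, and binding of methylated CG was not measured here. Mbd3, the relative of MBD2 in the other form of the NuRD complex, was higher on both probes in PR, by 0.37 (limma adjusted p = 0.00217) and 0.17 (limma adjusted p = 0.0299). In FA, the first Mbd3 probe was higher by 0.27 (limma adjusted p = 0.00926), and the second, at 0.088, did not pass (limma adjusted p = 0.209). The first read 11.42, 11.66, 11.49, and 11.43 in the CD mice, 11.99, 11.78, 11.85, and 11.87 in the PR mice, and 11.85, 11.70, 11.80, and 11.73 in the FA mice. CD replicate 2 was the highest CD mouse and below all PR and FA mice.

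Of the NuRD and corepressor partners of the readers, 4 of 30 probes were lower and 6 higher in PR, and 7 were lower and 5 higher in FA, with medians of −0.001 and −0.033. Hdac2, a histone deacetylase of NuRD, rose from 6.48 ± 0.075 (SD, n = 4) in CD to 7.03 ± 0.14 in PR and 6.99 ± 0.11 in FA, by 0.55 (limma adjusted p = 0.000672) and 0.50 (limma adjusted p = 0.000975). With normexp, its changes were 0.28 and 0.29, and passed. Rbbp7, a histone-binding subunit, was higher by 0.50 (limma adjusted p = 0.00677) and 0.63 (limma adjusted p = 0.00155) on 1 probe. On its other probe, the differences of −0.088 and −0.043 did not pass. Gatad2a and Gatad2b, which link the parts of NuRD, were lower by −0.25 and −0.34 in PR (limma adjusted p = 0.0110 and 0.0358) and by −0.30 and −0.50 in FA (limma adjusted p = 0.00332 and 0.00447). The 2 other Gatad2a probes were fitted higher and did not pass. The PR call of Gatad2a was lost with normexp correction (limma adjusted p = 0.0566, with 0.00332 to 0.0566 over all alternatives). That of Gatad2b was lost in 9 of 21 alternatives (limma adjusted p = 0.0166 to 0.113), among them leaving out CD replicates 1, 2, or 4 (0.0557, 0.0870, and 0.0526) or PR replicates 2, 3, or 4 (0.0686, 0.0832, and 0.0958).

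Markers of the cell types of the brain were compared between the groups in the same fit. Over all probes, 16.6% were lower and 13.4% higher in PR, and 18% were lower and 16.4% higher in FA. Of 10 neuron probes, 1 was lower and 2 were higher in PR, with Snap25 lower by −0.15 (limma adjusted p = 0.0319) and Gad1 higher by 0.23 (limma adjusted p = 0.00470), and 0 were lower and 2 higher in FA. With scaling to the 75th percentile, the PR change of Gad1 was 0.12 and did not pass (limma adjusted p = 0.0868, the highest of 0.00191 to 0.0868 over the alternatives). Of 11 astrocyte probes, 2 were lower and 3 higher in PR, and 3 were lower and 2 higher in FA. In PR, 2 probes of Gfap were higher, by 0.57 (limma adjusted p = 0.000236) and 0.43 (limma adjusted p = 0.000992), as was Gja1, by 0.30 (limma adjusted p = 0.0346). Lower in PR were 1 probe of Slc1a2, by −0.47 (limma adjusted p = 0.0401), and 1 of Aqp4, by −0.21 (limma adjusted p = 0.0358). In FA, the lower probes were that of Slc1a2 (−0.63) and both of Aqp4 (−0.44 and −0.35). The higher ones in FA were the same 2 Gfap probes, by 0.48 (limma adjusted p = 0.000547) and 0.32 (limma adjusted p = 0.00446). Of 10 oligodendrocyte probes, 1 (10%) was lower and 4 (40%) were higher in PR, and 1 (10%) was lower and 2 (20%) were higher in FA. The lower one was a probe of Mbp (−0.51 in PR, limma adjusted p = 0.00724, and −0.27 with normexp), and another Mbp probe was among the higher ones in PR, at 0.31. Also higher in PR were Cnp (0.22, limma adjusted p = 0.0197), a probe of Mobp (0.23, limma adjusted p = 0.0441), and Mog (0.29, limma adjusted p = 0.0257). In FA, Cnp (0.29, limma adjusted p = 0.00452) and Mog (0.34, limma adjusted p = 0.0104) were the higher ones. Of 9 microglia probes, 2 were lower and 3 higher in each group, with 1 probe of Cx3cr1 higher by 0.62 in PR (limma adjusted p = 0.000152) and the other fitted at −0.24. The lower microglia probes were Aif1 in both groups, at −0.37 and −0.28, and 1 of the 3 probes of Csf1r in each group, not the same one. Another Csf1r probe was higher in both, by 0.29 (limma adjusted p = 0.00197) and 0.17 (limma adjusted p = 0.0214).

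All 5 endothelium probes were well above background on every array. Of these, 3 (60%) were higher in PR and 3 (60%) in FA, against 13.4% and 16.4% of all probes. Tek and Slco1a4 were higher in both, Pecam1 in PR, and Cldn5 in FA, while Cdh5 was fitted at −0.11 and −0.16 and did not pass. Tek was higher by 0.76 (limma adjusted p = 0.00318) and 0.88 (limma adjusted p = 0.00116), and by 0.40 and 0.47 with normexp. The mean of the 5 endothelium probes was 9.19, 9.16, 9.36, and 9.37 on the CD arrays, 9.76, 9.53, 9.45, and 9.68 on the PR arrays, and 9.54, 9.54, 9.68, and 9.60 on the FA arrays. Of 8 choroid plexus probes, 0 passed in either group by limma, with Kl at 0.17 in PR (limma adjusted p = 0.165). At an unadjusted p under 0.05 there were 0 in PR and 2 in FA, and by the Tukey test 0 in both.

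Of 10 pituitary probes, 2 were lower in PR, those of Gh and Prl, and 3 in FA, with Pitx1 as the other. Growth hormone (Gh) was at 7.84, 8.37, 7.73, and 7.82 in the CD mice. It was lower in PR (limma adjusted p = 0.000549), where 0 of 4 arrays had it well above background, and no fold is given. In FA, Gh was well above background on 1 of 4 arrays, that of replicate 4 with 6.16. Prl was well above background on 0 PR arrays and 1 FA array. FA replicate 4 was at 7.35 in Prl, against 2.39 to 2.47 in the other FA mice. Pitx1 was well above background on 2 CD, 4 PR, and 3 FA arrays, and its limma adjusted p in FA was 0.0466. The mean of all 10 pituitary probes was 6.79, 6.99, 7.02, and 6.92 on the CD arrays, 5.64, 5.47, 5.73, and 6.08 on the PR arrays, and 5.60, 4.87, 5.66, and 6.57 on the FA arrays. The mean of those above background on every array, Pomc, Lhb, and 1 probe of Pou1f1, was 10.16, 10.47, 10.35, and 10.46 on the CD arrays, 10.22, 10.04, 9.99, and 10.20 on the PR arrays, and 10.29, 9.88, 10.40, and 10.29 on the FA arrays. Of 5 blood probes, 0 passed by limma or the Tukey test, adjusted or not, and Slc4a1 differed by −0.73 in PR (limma adjusted p = 0.357), with CD replicate 3 highest at 9.74, and by −0.092 without that mouse. Of 11 probes of proliferating cells, 1 was lower and 1 higher in PR, and 0 were lower and 1 higher in FA. The lower one was Rrm2 and the higher one Ccna2. Of the list, the largest fitted change in PR was in a probe of Cdk1, not passing there, which exceeded background on 0 of 4 CD arrays and 1 array each of PR and FA. PR replicate 1 was at 7.49 in Cdk1, and without it the probe passed as higher in PR (limma adjusted p = 0.0129, with 0.0129 to 0.333 over the alternatives) and in FA (0.00192, with 0.00192 to 0.886). Of 5 muscle probes, 1 was higher in each group, that of Mylpf, which exceeded background on 0 CD, 2 PR, and 0 FA arrays. Mylpf no longer passed with normexp (limma adjusted p = 0.533 in PR and 0.862 in FA) or, in FA, with scaling to the 75th percentile (0.141). Over all alternatives, its smallest limma adjusted p was 0.000186 in PR and 0.000268 in FA. No fold is given for Cdk1 or Mylpf. The part of these cell types in the levels of Dnmt1, Dnmt3a, Tet2, and Mbd2 was not tested.

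The genes whose levels followed the members most closely over the 12 arrays were sought among 17869 probes of other genes with a name, well above background on all arrays. These correlations include the differences between the 3 groups, which share slides, and are given as a description. Dnmt1 was most like Luc7l3 (Pearson r = 0.974, n = 12) and Ptprz1 (0.968), and Dnmt3a was most like Acin1 (0.984) and Abca5 (0.979). For Tet2, the first probe was most like Bfar (0.983) and Exoc6b (0.971), and the second like Pcdhb15 (0.964) and Ppp1r16b (0.961). Mbd2 was most like Smox (0.986) and Phb2 (0.983) on the first probe and like Vbp1 (0.990) and Ncrna00081 (0.985) on the second. The Tet3 probe that passed in PR had no such probe above 0.9, and was most like Rsc1a1 (0.893) and Shank1 (0.886). An r above 0.9 was reached by 116 probes for Dnmt1, 517 for Dnmt3a, 343 and 97 for the Tet2 probes, and 414 and 434 for the Mbd2 probes.

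Before their most upstream starts, the 3 genes lower in both groups hold different amounts of the CG dinucleotide, the substrate of the enzymes they encode. RefSeq starts on GRCm38.p6 were at hand for 7 of the 9 genes, and CG was counted in the 250 bases before each of 32851 starts of 27025 genes. CG reads the same on both strands. A CG was found before 92.1% of all starts, with a median of 6. The start of Tet2 was preceded by 51 CG, a number reached by 0.067% of all starts, in a row of similar repeated units. Before the most upstream start of Dnmt3a there were 38, reached by 1.88% of starts, and before its 2 other starts 40 and 15. The most upstream start of Dnmt1 had 2, and its 2 other starts 7 and 26, the last number reached by 9.59% of all starts. The numbers were 21 for Dnmt3b, 15 for Tet1, 17 for Tet3, and 5, 4, and 3 for the 3 starts of Dnmt3l. The bases before the Tet2 start (chr3:133544391-133544640, minus strand), the most upstream Dnmt3a start (chr12:3806730-3806979, plus strand), and the most upstream Dnmt1 start (chr9:20959889-20960138, minus strand) are shown to make this contrast visible, with each CG in capitals. The letters GGGCGG, the GC box bound by Sp1, or their complement CCGCCC occurred 1 time in the Tet2 window, 5 times in that of Dnmt3a, and 0 times in that of Dnmt1, and at least once before 32.7% of all starts. Before the other starts they occurred 0 and 2 times for Dnmt1 and 4 times and 1 time for Dnmt3a, so that the contrast holds for the starts shown and not for each start of these genes. Which start gave rise to the transcripts measured in brain was not examined, so the windows shown need not be theirs. These are counts of letters, and methylation of these windows was not analysed here.
Tet2: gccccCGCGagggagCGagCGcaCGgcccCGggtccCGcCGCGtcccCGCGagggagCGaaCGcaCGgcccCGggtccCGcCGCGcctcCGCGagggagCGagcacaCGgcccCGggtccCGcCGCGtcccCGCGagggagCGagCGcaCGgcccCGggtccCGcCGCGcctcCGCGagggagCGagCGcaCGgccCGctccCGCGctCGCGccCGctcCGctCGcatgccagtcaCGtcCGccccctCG
Dnmt3a: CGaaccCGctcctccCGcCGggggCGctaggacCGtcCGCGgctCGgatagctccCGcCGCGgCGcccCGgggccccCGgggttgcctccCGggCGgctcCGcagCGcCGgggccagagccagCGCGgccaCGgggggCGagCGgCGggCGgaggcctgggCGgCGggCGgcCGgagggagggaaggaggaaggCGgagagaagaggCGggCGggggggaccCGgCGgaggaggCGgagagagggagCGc
Dnmt1: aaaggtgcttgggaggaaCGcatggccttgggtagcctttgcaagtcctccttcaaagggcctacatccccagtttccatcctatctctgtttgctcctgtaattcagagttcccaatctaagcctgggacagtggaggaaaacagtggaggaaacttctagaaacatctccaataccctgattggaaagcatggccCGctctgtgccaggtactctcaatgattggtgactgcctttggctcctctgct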

How the data were processed

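Feature Extraction 11.0.1.1 gave the spot intensities, which the authors deposited with background corrected within each array and probes annotated to mm9. A table of probe intensities after qspline normalization by the authors, on the linear scale, was also deposited. Its log2 values were used here. A probe counted as above background where the software's flag was set on 50% or more of its spots. With limma 3.58.1 (R 4.3.3), the 12 arrays were fitted in 1 model with a mean per group, and p-values were adjusted by Benjamini-Hochberg over all 39429 probes of each comparison. Tests were two-sided, passed at an adjusted p under 0.05, and were checked on simulated data. The simulated arrays had independent noise and no difference between slides or in background, so the check does not cover these. Files were read with version 1.17.8 of data.table.

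The members and lists were chosen with earlier results of these data known. Named were all members, from each of 4 pathway lists up to 4 genes with the smallest adjusted p on probes above background on all arrays, from each of 10 marker lists the largest fitted change in PR, and the 2 probes most like each such member probe that passed. Zfp57, Mbd3l2, Snap25, Gja1, Slc1a2, Aqp4, Cnp, Mobp, Mog, Aif1, Csf1r, Slco1a4, Pecam1, Cldn5, Cdh5, Prl, Pitx1, Pomc, Lhb, Pou1f1, Rrm2, and Ccna2 were named after their values were seen, and other settings are not reported for them.

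Other settings were quantile normalization, scaling to the 75th percentile, qspline rewritten in R without outlier spots, normexp (offset 50) with quantile normalization, leaving out dim probes, blocking on the replicate number, trended and robust variances, a fit of only the pair of groups, the Tukey test with Benjamini-Hochberg adjustment (named in the methods, but used here at the threshold of 0.05 with no limit on the fold), and each array left out in turn. Gene names are those of the files, and 68 of 69 pathway symbols matched. A GRCm38 table named 26055 probes (66.1%) by accession and added 0 probes to the members. The 11 methylation array samples were not analysed here.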

Additional observations from a re-analysis of the deposited data

Results flagged for a closer look

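Over the 54 groups of 4 values (18 probes in 3 groups), 1 mouse had a gap to the nearest other mouse of its group that, divided by the range of the group, was above the 95% critical value of Dixon, which is fewer than the about 1 in 20 groups that chance gives. Mbd1 on its first probe was at 10.74 in PR replicate 2, against 10.62 to 10.63 in the other PR mice, a gap of 0.861 of the range. The measure is relative to the range, and wider gaps in log2 occur in groups with a wider range.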

How the results depend on the processing

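The counts of lower member probes in PR relative to CD were 4 to 5 over 9 alternatives and 3 to 6 with any 1 array left out, at 3 (16.7%) without CD replicate 2 or PR replicate 3, near the 14.4% and 14% of all probes there, and at 6 (33.3%) without FA replicate 3, against 16.4%. The 4 with scaling to the 75th percentile (22.2%) stand against 21% of all probes. In FA relative to CD, they were 4 to 5 in both kinds of alternative, with 4 (22.2%) against 23.3% of all probes with that scaling and against 18.2% without CD replicate 4. Higher probes numbered 2 in PR throughout. In FA they numbered 2 to 3 with 1 array left out (3 without CD replicate 4, where the second Dnmt3b probe, above background on 1 of the 3 CD arrays left, passed at a limma adjusted p of 0.0273, with 0.0273 to 0.521 over its alternatives). With normexp and quantile normalization there were 0, and the cause was not tested. Between FA and PR, the counts were 0 in all 21 alternatives, the Tukey test included, with 2 probes at an unadjusted p under 0.05 in limma and 2 in the Tukey test.

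Of 125 changes of passing member probes under other settings, 116 still passed with the same sign and 9 did not pass. With 1 array left out, these numbers were 153 and 15 of 168. For member probes that did not pass, 14 of 355 values changed sign and 1 passed under other settings, and 37 of 480 changed sign and 3 passed with 1 array left out. Among the other genes named by the rule, 867 of 918 values kept their sign and their side of the threshold. The sign changed on the following values, and the cause was not tested. With scaling to the 75th percentile, they were 0.18 for the second Dnmt3b probe and 0.096 for the other Mbd1 probe in PR, 0.009 for the third Dnmt3b probe and 0.021 for the other Mbd1 probe in FA, and, between FA and PR, −0.021 for the first Tet2 probe, −0.017 for the third Tet3 probe, and −0.075 for the other Mbd1 probe. With normexp, they were 0.043 for the second Dnmt3b probe and 0.031 for the other Mbd1 probe in PR, 0.036 for the third Dnmt3b probe, −0.049 for Dnmt3l, and 0.067 for the other Mbd1 probe in FA, and 0.004 for the first Mbd1 probe and −0.063 for the second Mbd2 probe between FA and PR. With 1 array left out, changes spanned 0 in PR from −0.11 to 0.10 for the second Dnmt3b probe and −0.074 to 0.057 for the other Mbd1 probe. In FA they ran from −0.069 to 0.068 for the third Dnmt3b probe, −0.11 to 0.12 for Dnmt3l, −0.078 to 0.053 for the first Tet1 probe, −0.069 to 0.052 for the other Mbd1 probe, and −0.069 to 0.068 for Kl. Between FA and PR they ran from −0.18 to 0.10 for the first Dnmt3b probe, −0.15 to 0.058 for the third Tet1 probe, −0.049 to 0.038 for the first Tet2 probe, −0.014 to 0.15 for the second Tet2 probe, −0.34 to 0.080 for the second Tet3 probe, −0.010 to 0.070 for the third Tet3 probe, −0.026 to 0.023 for the first Mbd1 probe, −0.063 to 0.070 for the other Mbd1 probe, and −0.016 to 0.045 for the second Mbd2 probe.

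The replicate numbers did not pair the mice. Deviations of mice with the same number were correlated at −0.063 to 0.196 over probes well above background. With the number as a block, 5 member probes were lower and 2 higher in PR, 5 lower and 2 higher in FA, and 0 between FA and PR, where calls over the whole array went from 152 lower and 90 higher to 6 and 5. The block ended the calls of Ehmt2 in FA and Naa10 in PR. Over the whole array, the Tukey test called 2 probes lower and 6 higher between FA and PR, and removing dim probes gave 374 and 257. Signal over background limits dim probes, among them the second Tet3 probe.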
